A study of Homo sapiens with 8 samples.

Results

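Nonsense-mediated decay (NMD) is the surveillance pathway that degrades mRNAs whose translation stops too early, and the genes described here are 9 of its factors: UPF1, UPF2, UPF3A, UPF3B, SMG1, SMG5, SMG6, SMG8 and SMG9. They were taken by gene symbol from the deposited expression table. The 9 genes and the gene lists used below were chosen with earlier results of these data known. All 9 are among the 15176 genes listed there, and all 9 are among the 13112 genes that were tested.

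RNA was sequenced from Panc1, an established human pancreatic ductal adenocarcinoma line. Cells that received an siRNA against SF3B1 were kept at 1% O2 (siSF3B1 hypoxia, n = 3 libraries, numbered 3, 6 and 9 in their titles). Cells that received a control siRNA were kept at 1% O2 (siCtrl hypoxia, n = 3 libraries, numbers 2, 5 and 8) or at 21% O2 (siCtrl normoxia, n = 2 libraries, numbers 1 and 4). All 3 groups therefore share the cell line and a transfected siRNA. The label gives 8 hours of 1% O2 for the siSF3B1 cells, and its wording does not settle whether that time also holds for the siCtrl cells. Nothing in the labels says whether libraries of a group stem from different cultures, and p-values cover the spread among these libraries alone, which may be technical. No siSF3B1 group at 21% O2 was analysed here, and the siRNA's effect was compared at 1% O2 alone.

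In NMD, the RNA helicase UPF1 is recruited to a ribosome that terminates upstream of an exon junction complex, the set of proteins that splicing leaves on the mRNA. UPF2 and a UPF3 protein join UPF1 to that complex, the SMG1 kinase with its subunits SMG8 and SMG9 phosphorylates UPF1, and phosphorylated UPF1 is bound by SMG6, an endonuclease that cuts the RNA, and by SMG5, which leads to deadenylation and decapping. The mRNAs of several of these factors, UPF1, UPF2, UPF3B, SMG1, SMG5 and SMG6 among them, are known in human cells to be substrates of NMD themselves, so that a loss of decay raises them. SF3B1 is the branch-point-binding protein of the spliceosome's U2 particle, and mis-spliced mRNAs are a large class of NMD substrates.

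The recovered totals ran between 20496492 and 25257173 reads per library over the listed genes. SF3B1 itself was at 5.44, 5.18 and 5.41 log2 CPM (read counts scaled to library size, on a log2 scale) in siSF3B1 hypoxia, at 8.86, 8.74 and 8.70 log2 CPM in siCtrl hypoxia and at 8.88 and 8.87 log2 CPM in siCtrl normoxia, so the targeted mRNA was 10.7-fold lower in siSF3B1 than in siCtrl cells at 1% O2 (limma, adjusted p = 9.69e-09). Of 9 ductal epithelial marker genes 7 were listed, and their summed level was 8106 to 10876 CPM in siSF3B1 hypoxia, 4875 to 6209 CPM in siCtrl hypoxia and 5237 to 6182 CPM in siCtrl normoxia. KRT8, KRT18 and KRT19 carry that sum and rose between siSF3B1 and siCtrl cells at 1% O2, KRT7 fell by 1.44 on the log2 scale, and the other 3 were not called. Of all tested genes, 35.0% were called higher and 30.9% lower in this comparison. The sum thus rose with these 3 keratins, while the 7 markers did not all move in 1 direction (median log2 fold change 0.05). Of 7 fibroblast markers 3 were listed, at summed levels of 14.9 to 38.3 CPM in siSF3B1 hypoxia, 24.1 to 55.8 CPM in siCtrl hypoxia and 17.8 to 41.5 CPM in siCtrl normoxia. Of 7 blood and endothelial markers CD14 alone was listed, at 1.93 to 3.23 CPM in siSF3B1 hypoxia, 0.959 to 1.21 CPM in siCtrl hypoxia and 0.638 to 0.846 CPM in siCtrl normoxia. The part of these marker differences in the results on the NMD factors was not tested, and in bulk RNA a change in the share of cells and a change of RNA per cell cannot be told apart.

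The 9 factors moved apart from one another when SF3B1 was depleted at 1% O2. UPF2, SMG5 and SMG8 rose, UPF1, UPF3B and SMG6 fell, and UPF3A, SMG1 and SMG9 did not pass the test (an adjusted p under 0.05 in limma, with Benjamini-Hochberg adjustment over all tested genes). The largest rise was 2.09-fold, in SMG8, and the largest fall 2.04-fold, in UPF3B. The 6 called factors are to be read against a background in which 66.0% of all tested genes were called in the same comparison (35.0% higher and 30.9% lower), so the share of factors called is near that of the transcriptome. The direction counts depend on the scaling of the libraries: with plain read totals 3 factors rose and 5 fell, UPF3A and SMG9 being added to the lower ones, and 27.1% of all tested genes were called higher and 37.8% lower. The median log2 fold change of the 9 factors was -0.21, beside 0.03 over all tested genes. Between siCtrl hypoxia and siCtrl normoxia no factor passed the threshold, where 5.65% of tested genes were called (4.35% higher and 1.30% lower, or 3.85% and 2.1% with plain read totals).

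**Figure D1:**
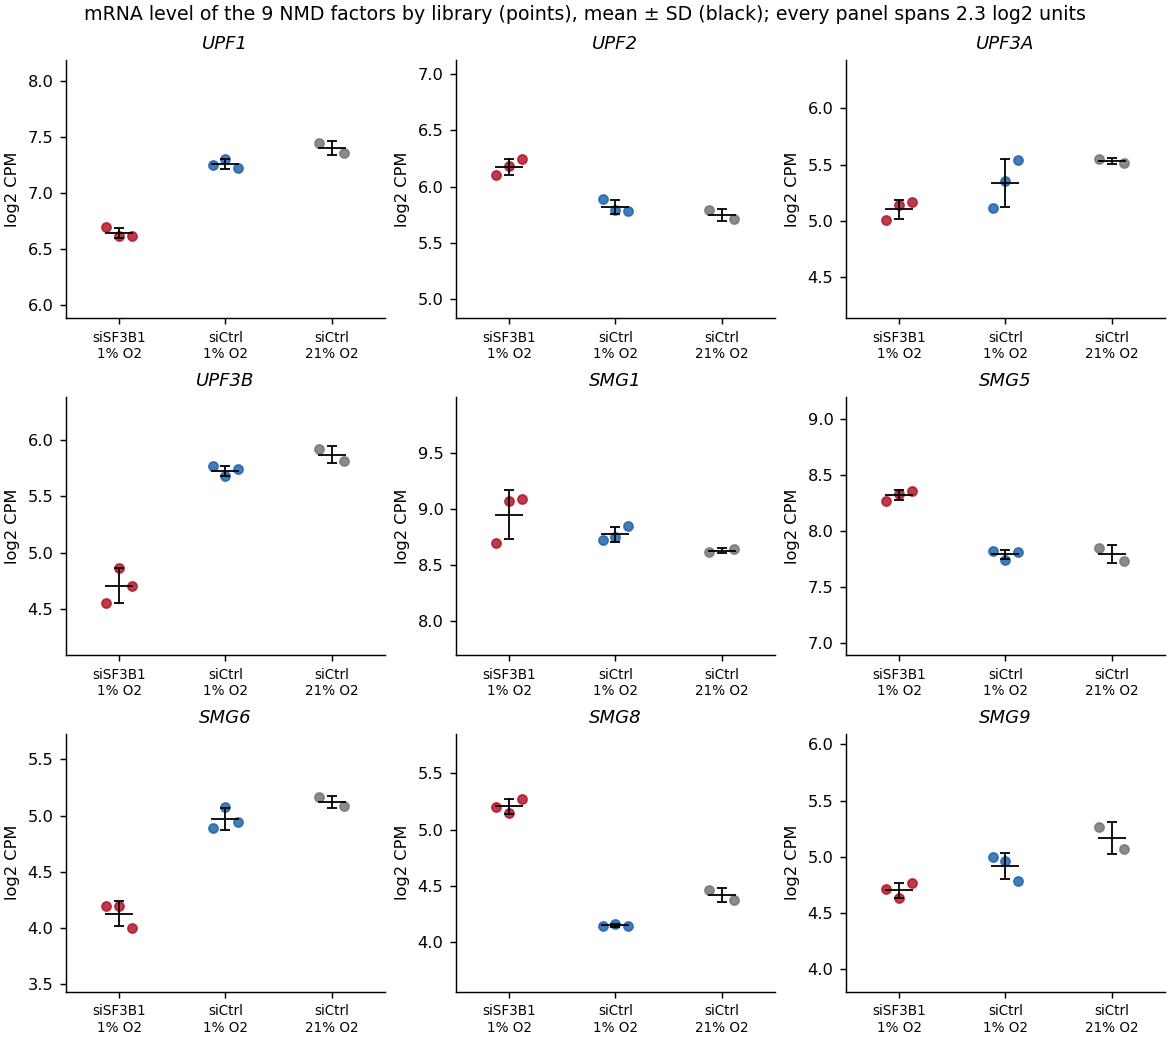
Level of each NMD factor in log2 CPM (y axis) in every library (points), with the group mean ± SD in black, for siSF3B1 at 1% O2 (n = 3), siCtrl at 1% O2 (n = 3) and siCtrl at 21% O2 (n = 2). SMG8 libraries lie at 5.15 to 5.27 in siSF3B1 hypoxia against 4.14 to 4.16 in siCtrl hypoxia, while UPF3B libraries lie at 4.55 to 4.86 in siSF3B1 hypoxia against 5.68 to 5.77 in siCtrl hypoxia.

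UPF1 is the helicase on which every branch of NMD depends, encoded at chr19:18831938-18868236 (GRCh38, plus strand, 24 exons). It was at 6.70, 6.62 and 6.62 log2 CPM in siSF3B1 hypoxia, at 7.25, 7.31 and 7.22 in siCtrl hypoxia and at 7.45 and 7.36 in siCtrl normoxia. Each of the 3 siSF3B1 values was lower than any siCtrl value, without overlap. UPF1 fell by 0.61 on the log2 scale between siSF3B1 and siCtrl cells at 1% O2 (SE 0.058, 95% CI -0.74 to -0.48, limma adjusted p = 8.89e-06), which is 1.53-fold lower.

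UPF2 is the adaptor that binds UPF1 on one side and a UPF3 protein on the other, encoded at chr10:11920022-12043170 (minus strand, 21 exons). It was at 6.10, 6.18 and 6.24 log2 CPM in siSF3B1 hypoxia, at 5.89, 5.79 and 5.78 in siCtrl hypoxia and at 5.79 and 5.71 in siCtrl normoxia. Every siSF3B1 library was above every siCtrl library, and the siCtrl groups overlapped each other. UPF2 rose by 0.35 on the log2 scale with SF3B1 siRNA at 1% O2 (SE 0.068, 95% CI 0.20 to 0.51, limma adjusted p = 0.00100), opposite in sign to its partner UPF1. The ratio of UPF2 to UPF1 was -0.47 ± 0.112 on the log2 scale in siSF3B1 hypoxia (SD, n = 3), -1.44 ± 0.083 in siCtrl hypoxia (n = 3) and -1.66 ± 0.0075 in siCtrl normoxia (n = 2).

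UPF3A and UPF3B are paralogs that bind UPF2, and UPF3B is the one that contacts the exon junction complex most strongly. UPF3B, on chrX:119805311-119852998 (minus strand, 11 exons), was at 4.55, 4.86 and 4.70 log2 CPM in siSF3B1 hypoxia, at 5.77, 5.68 and 5.74 in siCtrl hypoxia and at 5.92 and 5.82 in siCtrl normoxia. The siSF3B1 libraries stood apart, about 1 log2 unit below the others. UPF3B fell by 1.03 on the log2 scale (SE 0.087, 95% CI -1.22 to -0.83, limma adjusted p = 4.34e-06), the lowest log2 fold change of the 9 factors and at the 8.16th percentile of all tested genes.

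UPF3A, on chr13:114281584-114305817 (plus strand, 10 exons), was at 5.01, 5.14 and 5.16 log2 CPM in siSF3B1 hypoxia, at 5.11, 5.35 and 5.54 in siCtrl hypoxia and at 5.55 and 5.51 in siCtrl normoxia. The hypoxic groups overlapped, because siCtrl library 2 was as low as the siSF3B1 libraries. The difference between siSF3B1 and siCtrl cells at 1% O2 was -0.23 (SE 0.104, 95% CI -0.47 to -0.00091, limma adjusted p = 0.0714). The titles number the libraries in sets 1 to 3, 4 to 6 and 7 to 9, and libraries of a set deviated together from their group means; with the set as a block, UPF3A was called lower (limma adjusted p = 0.0129). In that fit all 9 factors were called, 4 higher and 5 lower, against 73.7% of all tested genes. Without siCtrl hypoxia library 2 the difference was -0.34 (limma adjusted p = 0.0107). Of the 50-base windows of the UPF3A mRNA, 42.1% also occur in another annotated gene, the pseudogenes UPF3AP1 and UPF3AP2 above all, so the authors' counting could have lost or shared reads there.

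The ratio of the paralogs shifted. The log2 ratio of UPF3B to UPF3A was -0.46, -0.28 and -0.46 in siSF3B1 hypoxia, 0.65, 0.33 and 0.20 in siCtrl hypoxia and 0.37 and 0.30 in siCtrl normoxia. UPF3B reads were thus the fewer of the pair in all 3 siSF3B1 libraries and the more numerous in all 5 siCtrl libraries. The mRNAs are of similar length (2378 bases for UPF3B and 2387 for UPF3A). Shared 50-base windows make up 42.1% of UPF3A and 0% of UPF3B, and no correction was made for reads lost or shared there. The sign of the ratio is therefore uncertain, and the values show the shift between groups alone.

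The UPF3B promoter is shown because UPF3B had the largest fall of the 9 factors. Its upstream sequence also holds ACGTG, a form of the core of the hypoxia response element. The stretch below runs from position -250 to position -51 relative to the RefSeq start, on chrX:119853014-119853213 (GRCh38.p14, minus strand, RefSeq), with the ACGTG that begins at position -91 in capitals.
UPF3B: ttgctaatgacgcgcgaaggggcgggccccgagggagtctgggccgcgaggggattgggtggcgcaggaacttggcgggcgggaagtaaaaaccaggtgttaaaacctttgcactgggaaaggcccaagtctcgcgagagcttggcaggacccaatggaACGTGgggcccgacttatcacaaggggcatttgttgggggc

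ACGTG was searched on both strands (as ACGTG or CACGT) in the 250 bases before the start. It was present for 3 of the 8 factors with a RefSeq promoter entry: UPF2, where both forms overlap in CACGTG, UPF3B and SMG1. Of all 35116 promoters in the table, 18.5% held it. The other form of the core, GCGTG, was not searched. It occurs upstream of UPF1, for example, where ACGTG does not, so a factor without ACGTG can still hold the core. A match is a description of the letters only, and none of UPF2, UPF3B and SMG1 passed the test between siCtrl hypoxia and siCtrl normoxia.

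SMG1 is the kinase that phosphorylates UPF1, a very large protein whose mRNA of 16115 bases has 63 exons (chr16:18804853-18926454, minus strand). It was at 8.70, 9.07 and 9.09 log2 CPM in siSF3B1 hypoxia, at 8.73, 8.75 and 8.85 in siCtrl hypoxia and at 8.61 and 8.64 in siCtrl normoxia. The siSF3B1 libraries 6 and 9 lay above all siCtrl libraries, whereas library 3 lay just below all 3 siCtrl hypoxia libraries, so the libraries of the siSF3B1 group did not lie on the same side. The difference between siSF3B1 and siCtrl cells at 1% O2 was 0.18 (SE 0.097, 95% CI -0.04 to 0.39, limma adjusted p = 0.136). It was called higher with the library set as a block (limma adjusted p = 0.0272), and without siSF3B1 library 3 the value was 0.30 (limma adjusted p = 0.0019).

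SMG1 has a family of partial copies on chromosome 16, and these limit what its read count can show. Of the 50-base windows of the SMG1 mRNA, 18.9% occur in another annotated gene. The copies SMG1P1, SMG1P2, SMG1P3, SMG1P5 and SMG1P7 are listed in the table. The coding stretch below, bases 981 to 1040 of the SMG1 coding sequence, is identical in all 5 and is shown because a read inside it cannot be assigned to a single gene.
SMG1 and 5 copies: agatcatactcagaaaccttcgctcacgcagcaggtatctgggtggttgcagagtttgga

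A second stretch, bases 71 to 130 of the SMG1 coding sequence, was picked because each of 4 copies differs from SMG1 there by only 1 or 2 bases. It does not stand for the rest of the mRNA. Capitals mark the positions that differ, counted from 1 at the 5′ end of the stretch. SMG1P1 and SMG1P3 differ from SMG1 by A49G, and SMG1P2 and SMG1P5 by C41T and A49G.
SMG1: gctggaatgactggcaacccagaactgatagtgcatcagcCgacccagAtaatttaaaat
SMG1P1 and SMG1P3: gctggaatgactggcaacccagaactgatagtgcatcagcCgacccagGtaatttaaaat
SMG1P2 and SMG1P5: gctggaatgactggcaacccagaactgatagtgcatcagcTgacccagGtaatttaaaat

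Of the 5 listed copies, SMG1P7 was near the lower limit for a test, at 0.69, 1.11 and 0.25 log2 CPM in siSF3B1 hypoxia, at 0.86, 1.22 and 1.18 in siCtrl hypoxia and at 0.80 and 1.09 in siCtrl normoxia. The other 4 lay between 4.93 log2 CPM (SMG1P1) and 7.14 log2 CPM (SMG1P3). SMG1P3 was at 6.87, 7.05 and 7.14 log2 CPM in siSF3B1 hypoxia, at 6.65, 6.63 and 6.73 in siCtrl hypoxia and at 6.82 and 6.70 in siCtrl normoxia. It rose by 0.35 between siSF3B1 and siCtrl cells at 1% O2 (SE 0.077, limma adjusted p = 0.00243), and SMG1P1 rose by 0.39 (SE 0.109, limma adjusted p = 0.00921). SMG1P2 was at 0.12, SMG1P5 at 0.15 and SMG1P7 at -0.40 on the log2 fold change scale, none past the threshold. With the reads of SMG1 and the 5 listed copies added together, the level was 9.38, 9.67 and 9.71 log2 CPM in siSF3B1 hypoxia, 9.34, 9.34 and 9.45 in siCtrl hypoxia and 9.30 and 9.29 in siCtrl normoxia. The sum passed the threshold narrowly, at 0.21 on the log2 scale (limma adjusted p = 0.0491).

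SMG8 and SMG9 are the SMG1-bound subunits that hold the kinase in check. SMG8, at chr17:59209400-59215247 (plus strand), has 5 exons, the fewest of the 9. It was at 5.20, 5.15 and 5.27 log2 CPM in siSF3B1 hypoxia, at 4.14, 4.16 and 4.14 in siCtrl hypoxia and at 4.46 and 4.37 in siCtrl normoxia. The 3 groups were fully separate, with siSF3B1 hypoxia the highest and siCtrl hypoxia the lowest. SMG8 rose by 1.06 on the log2 scale with SF3B1 siRNA at 1% O2 (SE 0.076, 95% CI 0.89 to 1.23, limma adjusted p = 1.46e-06), at the 95.6th percentile of all tested genes. Of the 50-base windows of its mRNA, 11% are shared with AC099850.2, which is not among the listed genes.

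SMG9, at chr19:43727992-43754990 (minus strand, 14 exons), was at 4.72, 4.63 and 4.76 log2 CPM in siSF3B1 hypoxia, at 5.0, 4.96 and 4.79 in siCtrl hypoxia and at 5.26 and 5.06 in siCtrl normoxia. The siSF3B1 libraries were below all the others, although the gap to siCtrl library 8 was small. The difference at 1% O2 was -0.21 (SE 0.090, 95% CI -0.41 to -0.01), which missed the threshold (limma adjusted p = 0.0577) and passed it with the library set as a block (limma adjusted p = 0.0256). Without siCtrl hypoxia library 8 it was -0.28 (limma adjusted p = 0.0282). The subunits of 1 kinase complex were thus measured at 1.06, -0.21 and 0.18 for SMG8, SMG9 and SMG1 as log2 fold changes, and the log2 ratio of SMG8 to SMG9 was 0.50 ± 0.018 in siSF3B1 hypoxia (SD, n = 3), -0.77 ± 0.113 in siCtrl hypoxia (n = 3) and -0.75 ± 0.079 in siCtrl normoxia (n = 2).

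SMG5 and SMG6 are the effectors that act on the RNA after UPF1 is phosphorylated. SMG5, which brings in deadenylation and decapping, is encoded at chr1:156249224-156282825 (minus strand, 22 exons). It was at 8.27, 8.33 and 8.35 log2 CPM in siSF3B1 hypoxia, at 7.82, 7.74 and 7.81 in siCtrl hypoxia and at 7.85 and 7.74 in siCtrl normoxia. All siSF3B1 libraries were higher than all siCtrl libraries, and the siCtrl groups lay on top of each other. SMG5 rose by 0.53 on the log2 scale between siSF3B1 and siCtrl cells at 1% O2 (SE 0.058, 95% CI 0.40 to 0.66, limma adjusted p = 2.31e-05), or 1.44-fold.

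SMG6, the endonuclease that cuts next to the premature stop codon, is encoded at chr17:2059839-2303771 (minus strand, 19 exons). It was at 4.19, 4.19 and 4.0 log2 CPM in siSF3B1 hypoxia, at 4.89, 5.07 and 4.94 in siCtrl hypoxia and at 5.16 and 5.08 in siCtrl normoxia. SMG6 went the other way from SMG5, with every siSF3B1 library below every siCtrl library. It fell by 0.84 on the log2 scale (SE 0.088, 95% CI -1.04 to -0.64, limma adjusted p = 1.78e-05), or 1.79-fold. SMG6 rested on 303 to 891 reads per library. Of its exonic bases, 23.6% overlap HIC1 or SRR on the other strand, and the sources used here do not state whether reads were assigned by strand. HIC1 lay between -3.52 and -0.72 log2 CPM in the 8 libraries, below the level needed for a test. SRR was at 0.99, 0.84 and 0.78 log2 CPM in siSF3B1 hypoxia, at 1.92, 1.78 and 1.97 in siCtrl hypoxia and at 1.81 and 2.14 in siCtrl normoxia, far below SMG6 in every library.

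Set as a ratio, the effectors had the largest mean difference of the 4 partner pairs at 1% O2, close in size to that of SMG8 and SMG9. The order of the pairs was not tested. The log2 ratio of SMG6 to SMG5 was -4.08, -4.14 and -4.35 in siSF3B1 hypoxia, -2.93, -2.67 and -2.87 in siCtrl hypoxia and -2.69 and -2.65 in siCtrl normoxia. The difference between siSF3B1 and siCtrl at 1% O2 was -1.37 for SMG6 over SMG5, 1.27 for SMG8 over SMG9, 0.97 for UPF2 over UPF1 and -0.79 for UPF3B over UPF3A. In all 4 pairs the 3 siSF3B1 values lay outside the range of the 3 siCtrl hypoxia values. A two-sided exact permutation test of 3 libraries against 3 cannot go below p = 0.1, and each of the 4 ratios gave that value (adjusted p = 0.267 over 12 tests of 4 ratios in 3 comparisons), so the ratios are a description of these libraries.

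**Figure D2:**
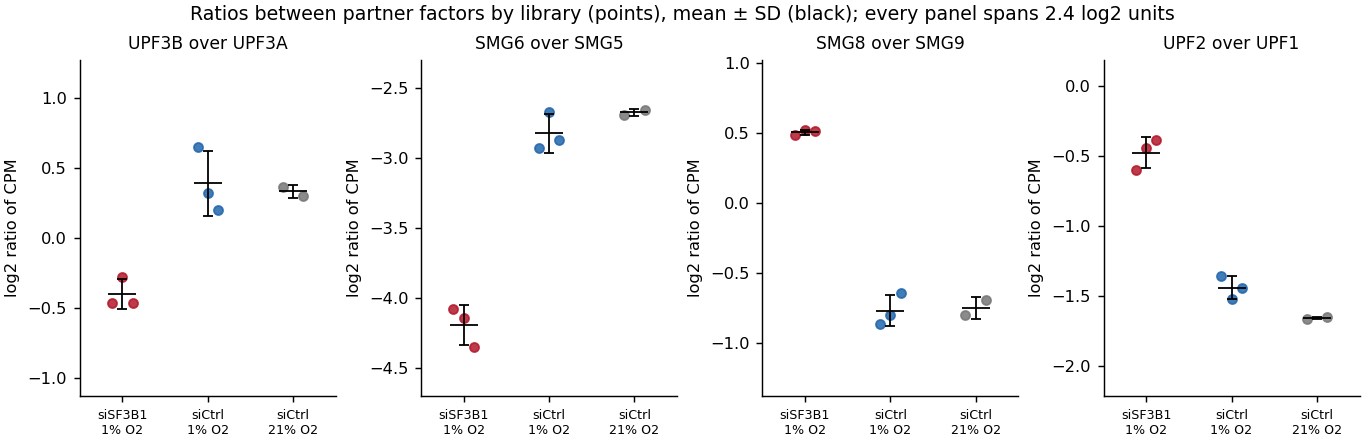
Log2 ratio of CPM between partner factors (y axis) in every library (points), with the group mean ± SD in black, for siSF3B1 at 1% O2 (n = 3), siCtrl at 1% O2 (n = 3) and siCtrl at 21% O2 (n = 2). The SMG8 over SMG9 ratio averages 0.50 in siSF3B1 hypoxia, against -0.77 in siCtrl hypoxia and -0.75 in siCtrl normoxia.

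Hypoxia in siCtrl cells gave no called factor in limma, against 5.65% of all tested genes, and 3 of the 9 had an unadjusted p under 0.05, as had 19.7% of all tested genes. SMG8 was 0.27 lower on the log2 scale in siCtrl hypoxia (SE 0.085, unadjusted p = 0.010, limma adjusted p = 0.108), and with the library set as a block it was called lower (-0.28, limma adjusted p = 0.0478), as 1 of 9 factors against 12.5% of all tested genes. SMG9 was at -0.25 (SE 0.101, unadjusted p = 0.0334, limma adjusted p = 0.208) and UPF1 at -0.15 (SE 0.065, unadjusted p = 0.0482, limma adjusted p = 0.25). The remaining log2 fold changes were -0.20 for UPF3A, -0.15 for SMG6, -0.14 for UPF3B, 0.15 for SMG1, 0.07 for UPF2 and -0.0024 for SMG5, with adjusted p between 0.394 and 0.989 in limma. Of the 9 values, 7 were below 0, SMG5 by very little. The median of the 9 was -0.15, against -0.02 over all tested genes. The siCtrl hypoxia libraries did not overlap the siCtrl normoxia libraries for 6 of the 9 factors, UPF1, UPF3B, SMG1, SMG6, SMG8 and SMG9, where 42.7% of all tested genes did not overlap.

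All 9 factors were called between siSF3B1 hypoxia and siCtrl normoxia, a comparison in which both the siRNA and the oxygen differ and 62.4% of tested genes were called (34.1% higher and 28.3% lower, or 24.2% and 36.8% with plain read totals, and 69.5% in all with the library set as a block). UPF2 (0.43), SMG1 (0.32), SMG5 (0.53) and SMG8 (0.79) rose, and UPF1 (-0.76), UPF3A (-0.43), UPF3B (-1.17), SMG6 (-0.99) and SMG9 (-0.46) fell, all on the log2 scale. The groups did not overlap for any of the 9, where 74.0% of tested genes did not overlap, against 7 of 9 and 68.4% between siSF3B1 and siCtrl cells at 1% O2. For SMG1 the call was the weakest (SE 0.109, limma adjusted p = 0.0249). It was lost when either siCtrl normoxia library was left out (limma adjusted p = 0.108 without library 1 and 0.0822 without library 4), when siSF3B1 library 6 or 9 was left out (0.0666 and 0.0851) and when libraries were scaled by plain read totals (0.16, limma adjusted p = 0.210). The call of UPF3A (limma adjusted p = 0.00894) was lost without siCtrl normoxia library 1 (limma adjusted p = 0.0571). The comparisons share libraries, so their values are given side by side and were not set against each other in a test.

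**Figure D3:**
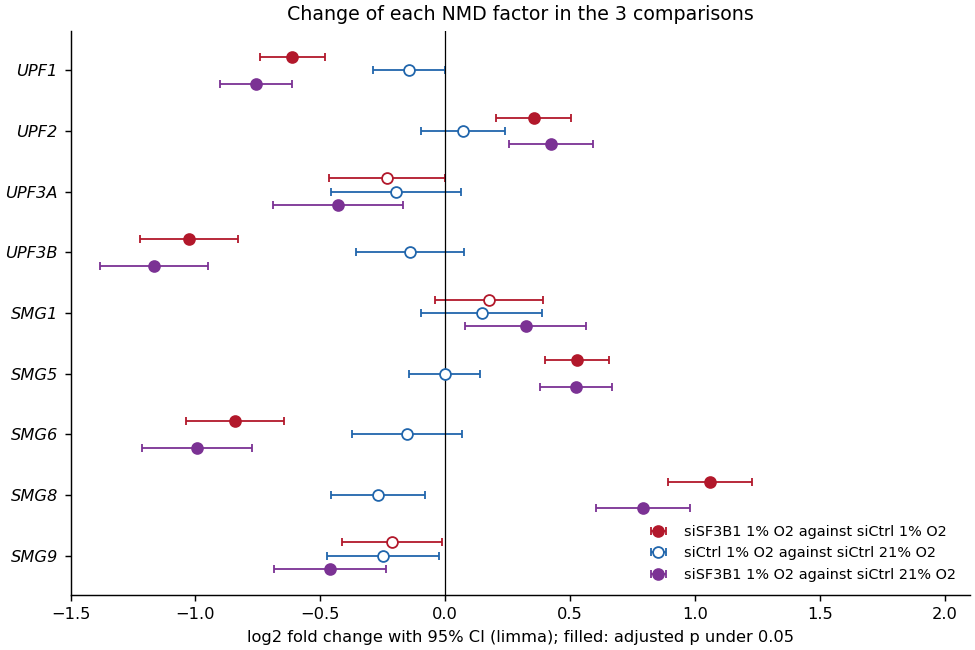
Log2 fold change of each NMD factor (x axis, with 95% CI from limma) in siSF3B1 at 1% O2 against siCtrl at 1% O2, in siCtrl at 1% O2 against siCtrl at 21% O2, and in siSF3B1 at 1% O2 against siCtrl at 21% O2; filled points have an adjusted p under 0.05. The hypoxia values in siCtrl cells lie between -0.27 and 0.15, with no filled point, while the siRNA values at 1% O2 run from -1.03 for UPF3B to 1.06 for SMG8.

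Per kilobase of the principal mRNA, SMG5 was the most abundant factor in every group, at 70.0 ± 2.07 CPM per kb in siSF3B1 hypoxia (SD, n = 3), 48.6 ± 1.43 in siCtrl hypoxia (n = 3) and 48.7 ± 2.74 in siCtrl normoxia (n = 2). In siSF3B1 hypoxia SMG1 (30.9 CPM per kb), UPF1 (18.8), UPF3A (14.4), UPF2 (13), UPF3B (11), SMG8 (10.6), SMG9 (4.73) and SMG6 (2.94) followed. In that order UPF3A overlapped UPF2 and UPF3B overlapped SMG8 between libraries, and the other neighbours were separate. In siCtrl hypoxia the order after SMG5 was UPF1 (28.7 CPM per kb), SMG1 (27.2), UPF3B (22.3), UPF3A (17.1), UPF2 (10.1), SMG9 (5.49), SMG6 (5.26) and SMG8 (5.09). There UPF1 overlapped SMG1, and SMG9, SMG6 and SMG8 overlapped in turn. In siCtrl normoxia it was UPF1 (31.7 CPM per kb), UPF3B (24.6), SMG1 (24.6), UPF3A (19.4), UPF2 (9.66), SMG9 (6.52), SMG8 (6.14) and SMG6 (5.85). In that group UPF3B overlapped SMG1, SMG9 overlapped SMG8 and SMG8 overlapped SMG6, while SMG9 and SMG6 were separate. UPF3B had rank 6 of 9 in siSF3B1 hypoxia, rank 4 in siCtrl hypoxia and rank 3 in siCtrl normoxia. Because UPF3A, SMG1, SMG6 and SMG8 share sequence with other genes, their places in these orders, and those of their neighbours, are uncertain.

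The 9 genes differ widely in structure. Their exons number from 5 in SMG8 to 63 in SMG1, against a median of 9 over coding genes, and their 3′ untranslated regions run from 237 bases in SMG8 to 4716 bases in SMG1, against a median of 1050. Across the 9 factors, the number of exons and the log2 fold change with SF3B1 siRNA at 1% O2 had a Spearman correlation of 0.02 (n = 9 genes measured in the same libraries), and over 12056 coding genes it was -0.17. Coding genes with 21 or more exons had a median log2 fold change of -0.23 (n = 1643), yet among the 4 factors in that range SMG5 and UPF2 rose, UPF1 fell and SMG1 was at 0.18. Genes with 5 or fewer exons had a median of 0.15 (n = 3274), and SMG8, with 5 exons, was at 1.06.

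By the highest Pearson correlation over the 8 libraries, among 12033 genes searched, the pattern of UPF1 was nearest to those of ERCC2 (r = 0.998) and CLN6 (0.997), of UPF2 to AGO3 (0.994) and PUM2 (0.994), and of UPF3B to CKMT2-AS1 (0.999) and CLUAP1 (0.997). Genes close to UPF3A included CPPED1 (0.963), and SMG1 was nearest to TUBA1A (0.981) and PMAIP1 (0.970), lower values than for most factors. SMG5 was nearest to CCDC186 (0.999) and TAF8 (0.998), SMG6 to TRAP1 (0.996) and SNX1 (0.996), SMG8 to AAMP (0.998) and DHX38 (0.998), and genes close to SMG9 included ARHGEF26 (0.963). All genes were measured in the same 8 libraries of 3 groups, and these values are descriptions.

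Genes of the exon junction complex, the mark that UPF3B binds, mostly rose. Of 10 such genes, 9 rose and none fell between siSF3B1 and siCtrl cells at 1% O2, where 35.0% of all tested genes rose and 30.9% fell (median log2 fold change 0.61, against 0.03 over all tested genes). EIF4A3, the RNA-clamping helicase of the complex, was at 8.26, 8.16 and 8.38 log2 CPM in siSF3B1 hypoxia, at 7.25, 7.27 and 7.34 in siCtrl hypoxia and at 7.24 and 7.29 in siCtrl normoxia. It rose by 0.98 (SE 0.067, limma adjusted p = 1.14e-06). SAP18, of the peripheral ASAP complex, rose by 1.17 (SE 0.061), RBM8A, which clamps EIF4A3 together with MAGOH, by 0.88, and ACIN1 by 0.72. RBM8A and ACIN1 overlap other genes in their exons and are uncertain. UPF3B itself fell in the same comparison.

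Of 14 other NMD and translation termination factors, 4 rose and 5 fell between siSF3B1 and siCtrl cells at 1% O2 (median log2 fold change 0.02). Of all tested genes, 35.0% were higher and 30.9% lower. With plain read totals 3 rose and 6 fell, against 27.1% higher and 37.8% lower of all tested genes. The 9 called of 14 are near the 66.0% called among all tested genes. FMR1, an RNA-binding protein that interacts with UPF1, rose by 1.08, and GSPT1, the release factor eRF3a, rose by 0.75. NBAS, an NMD factor of the endoplasmic reticulum, was at 4.85, 4.79 and 4.73 log2 CPM in siSF3B1 hypoxia, at 6.24, 6.13 and 6.11 in siCtrl hypoxia and at 5.79 and 5.88 in siCtrl normoxia. It fell by 1.37 with the siRNA (SE 0.070, limma adjusted p = 2.46e-07). NBAS was also the 1 gene of all 5 further lists called between siCtrl hypoxia and siCtrl normoxia in the fit without the library set, where it rose by 0.32 (limma adjusted p = 0.0394; 0.00678 with the set as a block). That call ended when any 1 of the 5 siCtrl libraries or siSF3B1 library 9 was left out (limma adjusted p between 0.0514 and 0.299). The NBAS call was also lost with plain read totals (limma adjusted p = 0.0619) and without an intensity trend (limma adjusted p = 0.0695). With the block, the counts higher and lower in that comparison were 1 and 1 for the other NMD factors, 0 and 1 for the exon junction complex, 3 and 0 for the decay machinery, 0 and 1 for the SMG1-related kinases and 4 and 0 for the known NMD substrates, against 12.5% of all tested genes.

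SMG1 belongs to a family of large kinases that includes MTOR and the DNA damage kinases, and that needs chaperones of its own. Of 8 genes of this family and its chaperones, SMG1 left out, 5 fell and none rose with SF3B1 siRNA at 1% O2 (median log2 fold change -0.58), against 30.9% lower and 35.0% higher of all tested genes. With plain read totals 6 fell, against 37.8% of all tested genes. MTOR, the growth kinase, was at 5.46, 5.55 and 5.39 log2 CPM in siSF3B1 hypoxia, at 7.69, 7.78 and 7.81 in siCtrl hypoxia and at 7.73 and 7.83 in siCtrl normoxia. MTOR fell by 2.30 (SE 0.066, limma adjusted p = 2.52e-08), and the DNA damage kinases ATR and PRKDC fell by 0.81 and 0.76. TTI1, a chaperone needed for the stability of these kinases, fell by 0.61.

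The machinery downstream of SMG5 was split. Of 19 genes of decapping, deadenylation and 5′ decay, 8 rose and 7 fell (median log2 fold change -0.05), against 35.0% higher and 30.9% lower of all tested genes. With plain read totals 8 rose and 10 fell, against 27.1% higher and 37.8% lower of all tested genes. Which direction held more genes thus depended on the scaling. PATL1, an activator of decapping, rose by 1.00 (SE 0.064, limma adjusted p = 7.82e-07), PAN3, of a deadenylase, by 0.92, and DDX6, a helicase of the decapping complex, by 0.69. CNOT6, a catalytic deadenylase, fell by 0.76 (SE 0.064, limma adjusted p = 4.28e-06).

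**Figure D4:**
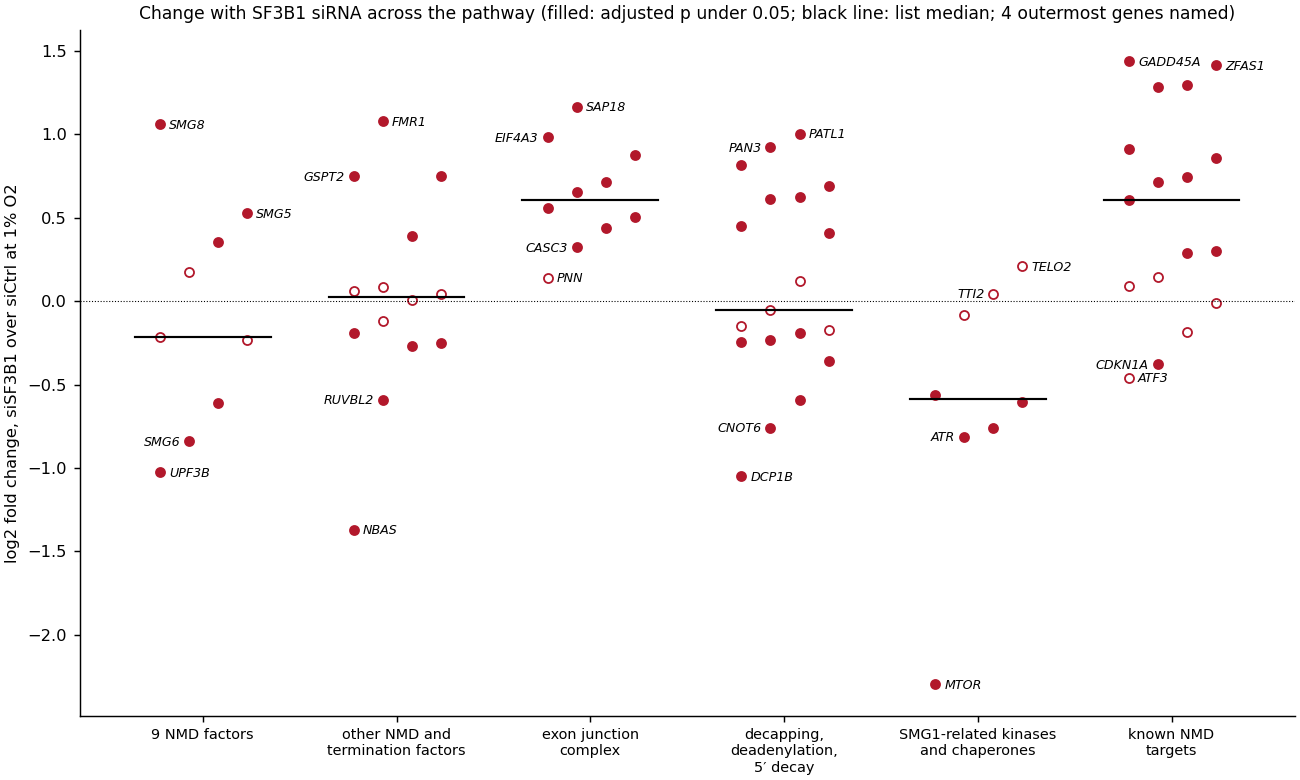
Log2 fold change in siSF3B1 against siCtrl cells at 1% O2 (y axis) of every tested gene in the 9 NMD factors and 5 further lists (x axis); filled points have an adjusted p under 0.05 and black lines are list medians. The exon junction complex has its median at 0.61 with 9 of 10 genes called higher, and the SMG1-related kinases have theirs at -0.58 with 5 of 8 called lower.

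Transcripts known as NMD substrates were mostly higher with SF3B1 siRNA. Of 17 such genes, 11 rose and 1 fell between siSF3B1 and siCtrl cells at 1% O2, where 35.0% of all tested genes rose and 30.9% fell (median log2 fold change 0.60, against 0.03 over all tested genes). With plain read totals 9 rose and 1 fell, where 27.1% of all tested genes rose and 37.8% fell. Over 18 alternative settings the number that rose ran from 9 to 12, so some of these calls depended on the setting. GAS5, a snoRNA host RNA that NMD degrades, was at 6.61, 6.81 and 7.30 log2 CPM in siSF3B1 hypoxia, at 5.63, 5.56 and 5.64 in siCtrl hypoxia and at 5.41 and 5.64 in siCtrl normoxia. GAS5 rose by 1.30 (SE 0.149, limma adjusted p = 3.23e-05). ZFAS1, also a snoRNA host, was at 6.71, 6.81 and 7.06 log2 CPM in siSF3B1 hypoxia, at 5.49, 5.50 and 5.36 in siCtrl hypoxia and at 5.57 and 5.51 in siCtrl normoxia, and it rose by 1.41 (SE 0.091, limma adjusted p = 8.52e-07). In both genes no siSF3B1 library came near a siCtrl library.

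GADD45A, a stress response gene whose mRNA is an NMD substrate, was at 6.62, 6.74 and 6.82 log2 CPM in siSF3B1 hypoxia, at 5.25, 5.41 and 5.21 in siCtrl hypoxia and at 5.47 and 5.51 in siCtrl normoxia. It rose by 1.44 (SE 0.078, limma adjusted p = 3.46e-07), the largest rise of the 17. SNHG1, a further snoRNA host, rose by 1.28, and SNHG1 and ZFAS1 overlap snoRNA or neighbouring genes in their exons and are uncertain. CDKN1A, a cell cycle inhibitor, was the 1 gene that fell, by 0.38 (SE 0.151, limma adjusted p = 0.0471), with overlapping groups. That call was lost when siSF3B1 library 3 or 6, siCtrl hypoxia library 2 or 8, or either siCtrl normoxia library was left out (limma adjusted p between 0.0614 and 0.174). The CDKN1A call was also lost with median-centred libraries (limma adjusted p = 0.0620), without an intensity trend (0.0852) and with only the 2 groups compared (0.0620). None of the 17 was called between siCtrl hypoxia and siCtrl normoxia, where 5.65% of all tested genes were called. With the library set as a block 4 were called higher there, where 12.5% of all tested genes were called in either direction. Between siSF3B1 and siCtrl cells at 1% O2, 35.0% of all tested genes were called higher and 30.9% lower. Of the 6 NMD factors named above as substrates of NMD, SMG5 and UPF2 rose there, SMG1 was at 0.18, and UPF1, UPF3B and SMG6 fell. Of the 17 other substrates 11 rose. The 6 factors and the 17 other substrates were not compared in a test. Between siSF3B1 hypoxia and siCtrl normoxia the counts higher and lower were 12 and 0 for these substrates, 9 and 0 for the exon junction complex, 4 and 6 for the other NMD factors, 9 and 6 for the decay machinery and 0 and 5 for the SMG1-related kinases, where 34.1% of all tested genes were higher and 28.3% lower. With plain read totals they were 10 and 0 for the substrates, 6 and 0 for the exon junction complex, 3 and 7 for the other NMD factors, 6 and 7 for the decay machinery and 0 and 7 for the kinases, where 24.2% of all tested genes were higher and 36.8% lower.

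**Figure D5:**
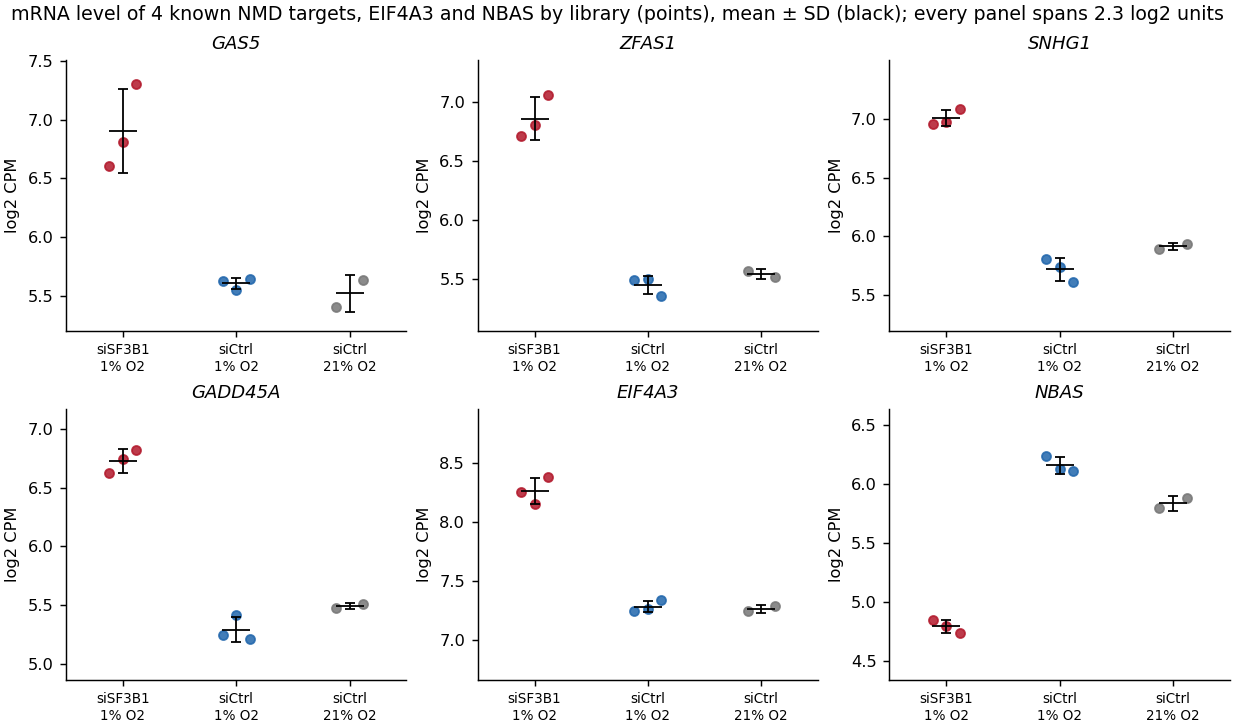
Level in log2 CPM (y axis) of 4 known NMD substrates, of EIF4A3 and of NBAS in every library (points), with the group mean ± SD in black, for siSF3B1 at 1% O2 (n = 3), siCtrl at 1% O2 (n = 3) and siCtrl at 21% O2 (n = 2). GADD45A lies at 6.62 to 6.82 in siSF3B1 hypoxia, against 5.21 to 5.41 in siCtrl hypoxia and 5.47 to 5.51 in siCtrl normoxia.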

How the data were processed

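RNA of 8 Panc1 libraries was measured, in the 3 groups that the titles give. The authors deposited log2 CPM values, 1 per gene and library. Per the labels' protocols a stranded Illumina kit and a ribosomal RNA depletion step were used. The submitters' processing notes name, without roles, the build GRCh38.p13 and the tools edgeR 3.24.3, STAR 2.7.0a, featureCounts, Trimmomatic 0.35, Subread 1.5.0 and SAMtools 1.9. How the 15176 listed genes (124 without a symbol) were selected is not stated there.

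The deposited log2 values gave back whole reads for all values within 0.01 read, with a mean prior count of 1.96, which understates changes of low genes. Genes with a mean log2 CPM above 0 were tested (13112; 2064 left out). Group means were estimated from the 8 libraries together in R 4.3.3 by limma 3.58.1 (residual degrees of freedom 5), with an intensity trend, two-sided tests and Benjamini-Hochberg adjustment; the code was tested on simulated data. Genes were called at an adjusted p under 0.05. The test was run on the log2 CPM values as deposited. A count test of edgeR on the recovered reads was not run, and voom on the recovered reads was an alternative. Read numbers limit the precision by counting error only.

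Same-set libraries of different groups had deviations from their group means that correlated at 0.344 to 0.430 across genes in all 7 pairs. The number sets of the titles were therefore used as a block in an alternative fit. What the numbers mark is not stated in the labels. The fit without the block is the one reported.

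The members and gene lists were chosen with earlier results of these data known. The rule for named genes takes the 9 factors, SF3B1, listed SMG1 or UPF3A pseudogenes, up to 4 called genes of smallest p per list and comparison, and the 2 tested genes with a symbol and a mean log2 CPM of at least 1 that correlate best with each factor. Some genes of the lists or named by this rule are not reported here. SRR, HIC1, CD14, CDKN1A and the KRT genes were named after their values were seen. Coordinates, exons and 50-base windows come from GENCODE 29 on GRCh38 (14813 listed genes matched) and promoters from RefSeq (8 of 9 factors matched). Alternatives were other filters, prior counts, scalings, variance models, sample sets, the block and each library left out in turn; adding the SMG1 copies was chosen after seeing the data.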

Additional observations from a re-analysis of the deposited data

How the results depend on the processing

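The calls of UPF1, UPF2, UPF3B, SMG5, SMG6 and SMG8 between siSF3B1 and siCtrl cells at 1% O2 kept their direction and passed the threshold under all 18 alternatives. The number of factors called in that comparison was 6 to 9 over these alternatives, and 6 to 7 when 1 library at a time was left out; UPF3A and SMG9 also passed with plain read totals (-0.37 and -0.35, limma adjusted p = 0.0103 and 0.00734). With the replicate block of the library-number sets, the factors called were 9 in that comparison, where 73.7% of all tested genes were called, and 1 between siCtrl hypoxia and siCtrl normoxia (SMG8), where 12.5% were; the block changed no other factor's call. All genes called between siCtrl hypoxia and siCtrl normoxia numbered 741 as reported, 1645 with the block, and 278 to 881 with 1 library left out (418 without siCtrl hypoxia library 2, 411 without library 8, 278 without siCtrl normoxia library 1 and 306 without library 4), so calls of hypoxia rest on few libraries. SMG5, at -0.0024 there, took the other sign at 1e-06 with median-centred libraries, and between -0.0598 and 0.055 with 1 library left out (above 0 without siCtrl hypoxia library 5 or siCtrl normoxia library 1). With plain read totals SMG1P2 was at -0.011 between siSF3B1 and siCtrl cells at 1% O2 and RUVBL1 at -0.0098 between siSF3B1 hypoxia and siCtrl normoxia; the cause was not tested. Plain read totals moved the median of all genes by -0.13 in the comparison of the siRNA at 1% O2 and by -0.17 between siSF3B1 hypoxia and siCtrl normoxia, and the other scalings by less than 0.04. SMG1 between siSF3B1 hypoxia and siCtrl normoxia was at 0.12 with quantile normalization (limma adjusted p = 0.328), and without an intensity trend its adjusted p in limma was 0.0548.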
